A study of Mus musculus with 3 samples.

Results

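The BCL2 family genes described here are 10 genes that set the threshold of the mitochondrial, or intrinsic, pathway of apoptosis. They were taken by symbol from the deposited tables, in which all 10 have a row, of 23361 genes in all. They comprise 3 pro-survival genes (Bcl2, Bcl2l1 and Mcl1) and 7 pro-death genes. The latter are 2 pore-forming effectors (Bax and Bak1) and 5 BH3-only genes (Bid, Bad, Bbc3, Pmaip1 and Bcl2l11). The libraries come from livers of C57BL/6J mice labelled male and aged 8 to 10 weeks, 1 library for each of 3 groups. The sham group had a laparotomy with no vessel clamped and was sampled after 90 min. In the warm ischemia (WI) group the vessels to the left and median lobes were clamped for 90 min, and in the ischemia-reperfusion (IR) group the same 90 min of clamping was followed by 120 min of reperfusion. All mice were fasted and anesthetized before surgery. No sham group was sampled at the time of the IR group, so reperfusion and time after surgery cannot be told apart. Nor is it given whether a library holds the RNA of 1 mouse or of several.

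Bcl2, BCL-XL (the product of Bcl2l1) and MCL1 hold the effectors BAX and BAK in check at the outer mitochondrial membrane. The BH3-only proteins sense damage and either neutralize the pro-survival proteins or activate the effectors, after which the membrane is breached and cytochrome c reaches the cytosol. Hepatocytes are known to depend on BCL-XL and MCL1 for survival, and BID links death receptors to mitochondria in these cells. Much of the control of the family acts on the proteins, by cleavage, phosphorylation or turnover, which mRNA values do not show.

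The values are FPKM (fragments scaled to transcript length and to the number of mapped fragments), so that levels of different genes can be compared per length. Each comes with 95% bounds that carry the model error of Cuffdiff and not the variation between mice. With 1 library per group no difference below has a replicate check and no test was made. Changes are differences in log2(FPKM + 1), which understate the change of genes with low FPKM, and a change was called at a difference of 2-fold or more in FPKM + 1. Of the 23361 genes, 10792 reached an FPKM of 1 in at least 1 library and form the background. They include 9 of the 10 family genes, Bcl2 being the exception. Counts of family genes below are over all 10.

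Several facts of the libraries bear on every comparison with the IR sample. The sham and WI samples go against their label of male. Xist had an FPKM of 18.9 in sham, 20.1 in WI and 1.29 in IR, and the Y-linked gene Eif2s3y was listed at 0, 0 and 13.2. Sex and reperfusion therefore cannot be told apart in the comparisons of IR with WI and with sham, whereas the sham and WI samples were alike in these genes. The liver label was borne out by the hepatocyte markers, with 6 of the 7 in the tables far above 0, while Alb was listed at 0 in all 3 libraries because its locus held too many fragments to be processed. The summed FPKM was 475754 in sham, 487912 in WI and 712423 in IR. Genes marked as having too many fragments to be processed numbered 1 in sham, 1 in WI and 7 in IR. The sums therefore leave out more of such genes in IR, which also bears on the TPM values below. Rescaling each library to the same sum (TPM) shifts the plain log2 ratio of IR to WI by -0.55 and that of IR to sham by -0.58. In log2(value + 1) the shift depends on the level of the gene, and it lowered the changes of the 10 members by 0.11 to 0.53 from WI to IR and by 0.25 to 0.56 from sham to IR. Rescaling by the median ratio of genes shifts the plain log2 ratios by -0.05 and -0.09. Results that turn on this choice are given under both. The 7 neutrophil markers in the tables summed to an FPKM of 25.8, 19.9 and 463 in the sham, WI and IR samples, and 6 of the 7 were higher in IR than in WI by 2-fold or more. The 5 erythroid markers summed to 751, 518 and 1976 in the same order, and the same held for all 5. The 8 Kupffer cell and macrophage markers summed to 497, 254 and 165. Of these, 2 were lower by 2-fold or more in IR than in WI, and 6 were in IR than in sham. Marco (20.9, 12.6 and 25.3) and Cd68 (18.5, 12.3 and 18.5) went the other way from WI to IR. The part of these cells in the results for the family was not tested. In such bulk samples, fewer cells of a type and less RNA per cell cannot be told apart.

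Bcl2l1, which encodes BCL-XL, had the largest change of the family. It lies on chromosome 2 of mm10 from 152780668 to 152831682. Its FPKM was 15.9 in sham (95% bounds 8.54 to 23.3), 13.0 in WI (6.96 to 19.1) and 50.9 in IR (26.3 to 75.6). The IR sample was high, with deposited bounds that lay above those of both other samples, which overlapped each other. Its bounds were also apart when scaled by the median ratio. When scaled to TPM they overlap those of both other samples. The change was 1.89 from WI to IR and 1.62 from sham to IR on the scale of log2(FPKM + 1), a ratio of 3.91 and 3.20 in FPKM. Among the 10792 genes, Bcl2l1 ranked 200th from the top between IR and WI and 218th between IR and sham. With TPM the changes were 1.39 and 1.07, still past 2-fold.

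Mcl1, a pro-survival gene whose protein is short-lived, was the most abundant member in each library. It lies on chromosome 3 from 95658721 to 95663178. Its FPKM was 30.3 in sham (15.96 to 44.7), 32.3 in WI (16.9 to 47.6) and 73.5 in IR (35.6 to 111). The IR sample was again the high one, but its lower bound lay below the upper bounds of the other samples. The change was 1.16 from WI to IR and 1.25 from sham to IR, which placed Mcl1 470th and 380th of the 10792 genes. With TPM it was 0.63 and 0.69, short of 2-fold, and with the median ratio 1.12 and 1.17.

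Bcl2, the founding member of the family, was the least abundant in each library. Its FPKM was 0.351 in sham (0.121 to 0.580), 0.281 in WI (0.0897 to 0.472) and 0.240 in IR (0 to 0.535), and all 3 bounds overlapped. Among the 3 pro-survival genes nearly all of the FPKM thus came from Mcl1 and Bcl2l1, and Bcl2 did not pass 2-fold in any comparison.

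The stretches of 250 bases before the start sites of Bcl2l1 and Mcl1 are shown because these are the members that rose, and that of Bax as the most abundant pro-death gene, which did not change 2-fold. They are RefSeq sequences of GRCm38.p6, the assembly also called mm10, written on the strand of the gene. Capitals mark matches to any of the 6 motifs searched, on either strand. These were STAT (TTCNNNGAA), AP-1 (TGANTCA), CRE (TGACGTCA), the hypoxia core (ACGTG), the GC box (GGGCGG) and the NF-kB motif. Bcl2l1 lies on the minus strand at chr2:152831729-152831978, Mcl1 on the plus strand at chr3:95658471-95658720 and Bax on the minus strand at chr7:45466899-45467148.

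Bcl2l1: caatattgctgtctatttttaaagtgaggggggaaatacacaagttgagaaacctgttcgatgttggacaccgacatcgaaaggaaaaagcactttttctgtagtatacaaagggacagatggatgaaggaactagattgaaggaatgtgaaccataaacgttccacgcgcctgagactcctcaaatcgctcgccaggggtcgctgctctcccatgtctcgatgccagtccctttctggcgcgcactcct

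Mcl1: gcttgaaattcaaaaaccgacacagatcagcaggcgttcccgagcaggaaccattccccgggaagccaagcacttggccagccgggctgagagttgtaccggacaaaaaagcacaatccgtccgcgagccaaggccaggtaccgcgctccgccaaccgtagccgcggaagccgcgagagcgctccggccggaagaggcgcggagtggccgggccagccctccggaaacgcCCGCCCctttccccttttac

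Bax: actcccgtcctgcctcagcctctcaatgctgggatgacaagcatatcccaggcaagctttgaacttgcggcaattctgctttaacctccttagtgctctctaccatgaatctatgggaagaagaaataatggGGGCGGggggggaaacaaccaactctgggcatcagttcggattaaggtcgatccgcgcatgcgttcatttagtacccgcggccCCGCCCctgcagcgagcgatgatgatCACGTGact

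The window of Bcl2l1 held no match to any of the 6 motifs, that of Mcl1 held 1 GC box, and that of Bax held 2 GC boxes and the hypoxia core on both strands at overlapping positions. The share of all 32851 promoters with a match was 32.7% for the GC box, 16.6% for the hypoxia core, 7.25% for NF-kB, 7.02% for STAT, 6.75% for AP-1 and 1.55% for CRE. Of the 9 members with a sequence, 7 had a GC box and none had a STAT, AP-1 or CRE match, and NF-kB matched in Bbc3. RefSeq has 3 start sites for Bcl2l1, of which the one nearest to the end of the locus in the tables was used, and of the other two 1 window had an NF-kB match. The GC content was 47.6% for Bcl2l1 and 64.4% for Mcl1, beside a median of 52.4% over all promoters. Thus the windows of the 2 genes that rose shared none of these motifs, which says only that the letters are not in these windows.

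Among the effectors, Bax had an FPKM of 15.4 in sham (7.59 to 23.1), 15.9 in WI (7.92 to 23.8) and 20.4 in IR (10.4 to 30.3). Bak1 had 5.38 (2.45 to 8.31), 5.84 (2.70 to 8.99) and 8.12 (4.01 to 12.2) in the same order. For both the IR value was the highest and all bounds overlapped. From WI to IR the changes were 0.34 for Bax and 0.41 for Bak1, neither past 2-fold, and with TPM both turned to -0.18 and -0.07. The locus of Bak1 in the tables is shared with Ggnbp1, whose FPKM stayed between 1.37 and 1.56. Reads on the shared stretch could be divided between both genes.

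The BH3-only genes had lower levels, and none of the 5 changed at least 2-fold in FPKM + 1 in any comparison. Bid, which caspase-8 cleaves into an active form, had an FPKM of 5.36 in sham (2.60 to 8.11), 6.83 in WI (3.43 to 10.2) and 4.81 in IR (2.29 to 7.33). Bad, a sensor of growth factor signals, had 7.07 (2.68 to 11.5), 6.90 (2.36 to 11.4) and 8.49 (2.82 to 14.2). Bad shares its locus with Gpr137, whose FPKM went from 3.93 and 5.60 to 8.29, and the division of reads between both is uncertain. Bcl2l11, which encodes BIM, a binder of all the pro-survival proteins, was highest in sham at 2.69 (1.04 to 4.34), against 1.40 (0.537 to 2.26) in WI and 1.66 (0.623 to 2.70) in IR. Its bounds overlapped in every pair of samples.

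Bbc3 and Pmaip1, which encode PUMA and NOXA, are known targets of p53, as are Bax and the cell cycle inhibitor gene Cdkn1a. Bbc3 had an FPKM of 1.72 in sham (0.634 to 2.80), 2.13 in WI (0.846 to 3.42) and 1.53 in IR (0.556 to 2.50). Pmaip1 had 1.09 (0.383 to 1.79), 0.335 (0.0728 to 0.597) and 0.756 (0.239 to 1.27), so the WI sample was the low one and the bounds overlapped. Pmaip1 reached the FPKM of 1 only through the sham sample. Its change from sham to WI was -0.65 with the pseudocount of 1 and -1.70 as a plain ratio of FPKM, the only member whose 2-fold call in that comparison turned on the pseudocount. Cdkn1a had an FPKM of 21.5 in sham, 0.619 in WI and 47.5 in IR. No p53 target of the family changed by as much as 2-fold in FPKM + 1 in any comparison.

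**Figure D1:**
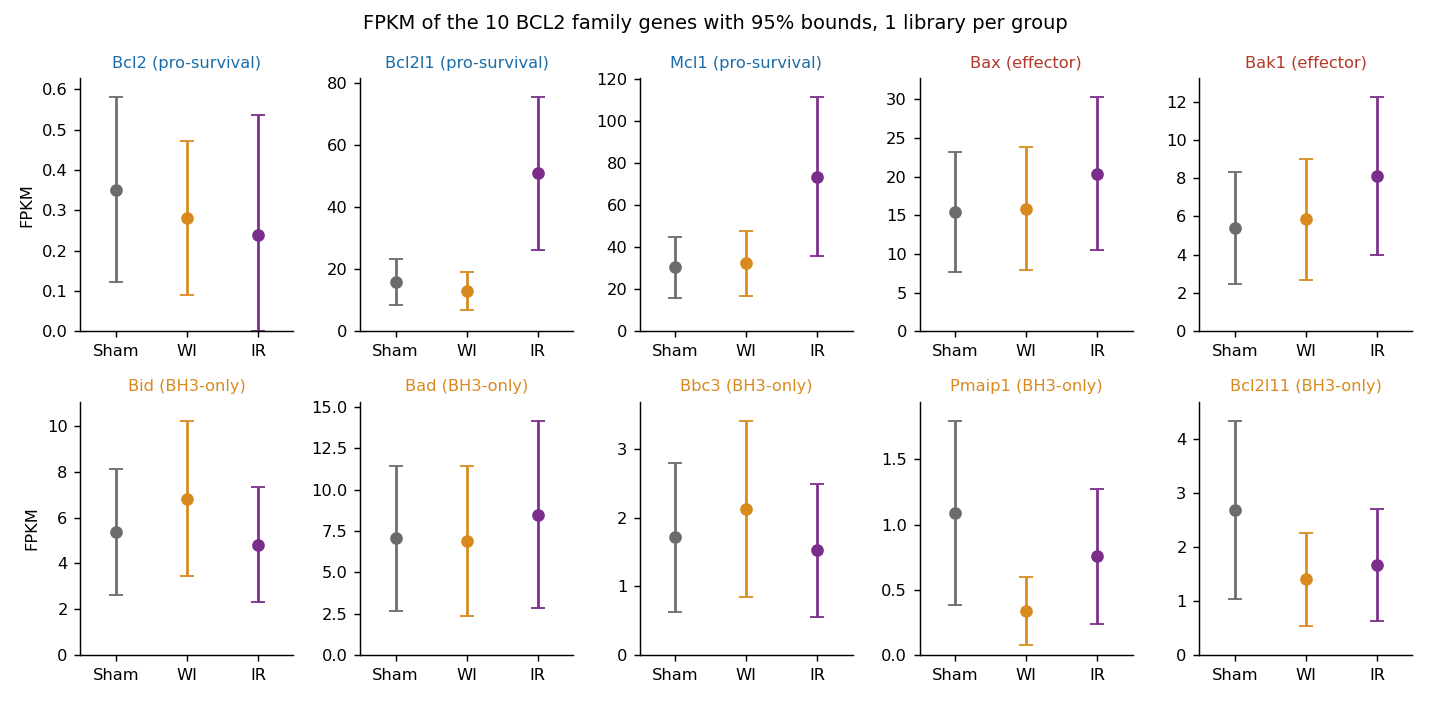
FPKM (vertical axes, each from 0) of the 10 BCL2 family genes in the sham, WI and IR libraries, with points for the deposited values and bars for their 95% bounds. The bounds of the IR sample lie apart from both others for Bcl2l1, at 26.3 to 75.6, and overlap with another sample for the remaining 9 genes.

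The comparison of WI with sham asks what 90 min of ischemia did before blood flow returned. No member of the 10 changed at least 2-fold in FPKM + 1, against 1.85% of the 10792 genes (0.751% higher and 1.1% lower). At 2-fold in plain FPKM the count was 1, for Pmaip1, against 4.04% of the 10761 genes above 0 in both libraries. Bounds were apart for 0 members, against 0.676% of genes (0.195% higher and 0.482% lower). At a lower threshold of 1.5-fold the count was 2, Pmaip1 and Bcl2l11, with changes of -0.65 and -0.62, against 7.41% of the 10792 genes. The pro-survival genes had a median change of -0.08 and the pro-death genes one of 0.04, and the median over all genes was 0.02. At a background this low, 0 of 10 says little about the family.

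The comparison of IR with WI asks what 120 min of reperfusion added. Here 2 of the 10 members changed at least 2-fold, Bcl2l1 and Mcl1, and both were higher in IR. Of the 10792 genes 7.21% changed by that much in either direction, 5.78% being higher and 1.43% lower. With TPM the balance of all genes turned, to 3.57% higher and 11% lower, and 1 member, Bcl2l1, was higher and 0 were lower. In plain FPKM the count was 3, with Pmaip1 added at a ratio of 2.26, against 12.2% of genes in either direction. Bounds as deposited were apart for 1 member, Bcl2l1, against 3.61% of genes (3.22% higher and 0.398% lower). The pro-survival genes had a median change of 1.16, with 2 of 3 higher at least 2-fold. The pro-death genes had a median of 0.26, with 0 of 7 past 2-fold and a range from -0.43 for Bid to 0.41 for Bak1. The median over all genes was 0.03. With TPM the medians were 0.63 for the pro-survival genes, -0.22 for the pro-death genes and -0.45 over all genes. The difference between the pro-survival and pro-death medians was 0.90, and 0.85 with TPM. The direction of 4 pro-death genes (Bax, Bak1, Bad and Bcl2l11) turned with that scaling, and so no direction is given for them.

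The comparison of IR with sham, which shares its libraries with both comparisons above, gave the same count of 2 members, again Bcl2l1 and Mcl1. The background was 7.5% of genes in either direction, 5.35% being higher and 2.15% lower. With TPM it was 2.96% higher and 14.4% lower, and again Bcl2l1 was higher and 0 members were lower. Bounds as deposited were apart for Bcl2l1 only among the 10, against 3.82% of genes (2.7% higher and 1.12% lower). The pro-survival median was 1.25 and the pro-death median -0.10, a difference of 1.35 (1.24 with TPM), while all genes had a median of 0.05. With TPM the medians were 0.69 for pro-survival genes, -0.55 for pro-death genes and -0.45 over all genes. Pro-death changes ranged from -0.47 for Bcl2l11 to 0.52 for Bak1. With TPM, the changes of Bax and Bad turned from 0.38 and 0.23 to -0.17 and -0.30.

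**Figure D2:**
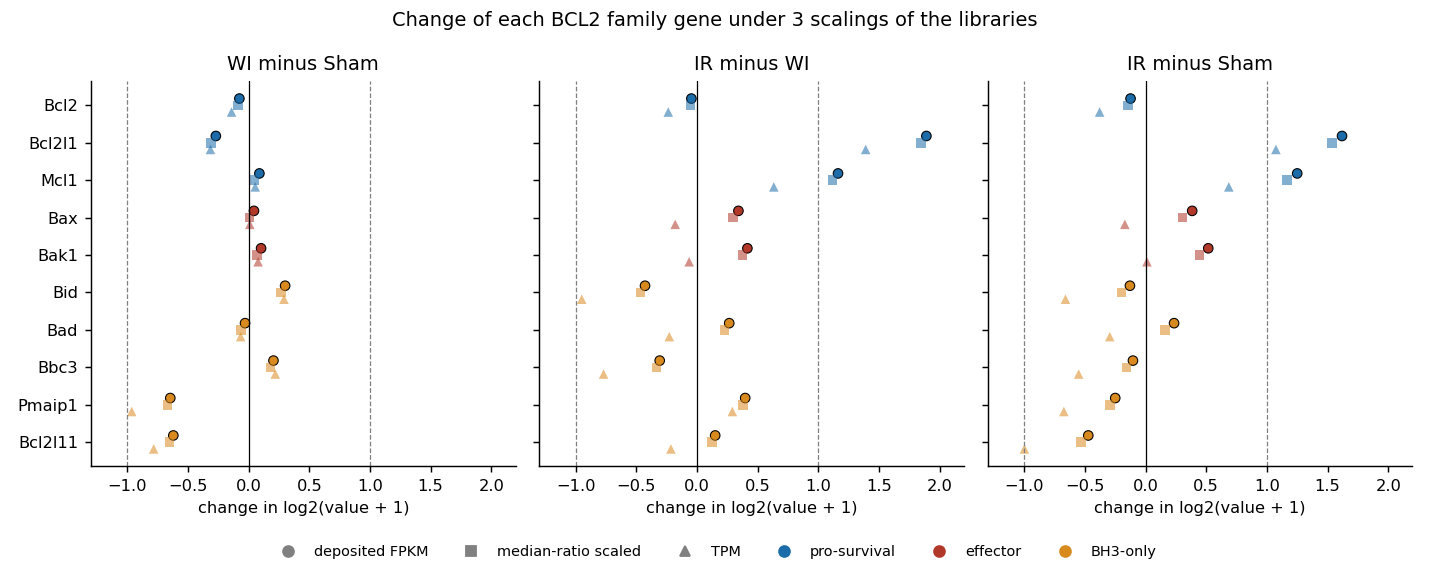
Change in log2(value + 1) of each family gene (horizontal axes) for WI minus sham, IR minus WI and IR minus sham, with circles for deposited FPKM, squares for libraries scaled by the median ratio, triangles for TPM, and dashed lines at 2-fold. Bcl2l1 lies past the right dashed line under all 3 scalings in both comparisons with the IR sample, Mcl1 under the first 2 only, and no pro-death gene does under any.

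**Figure D3:**
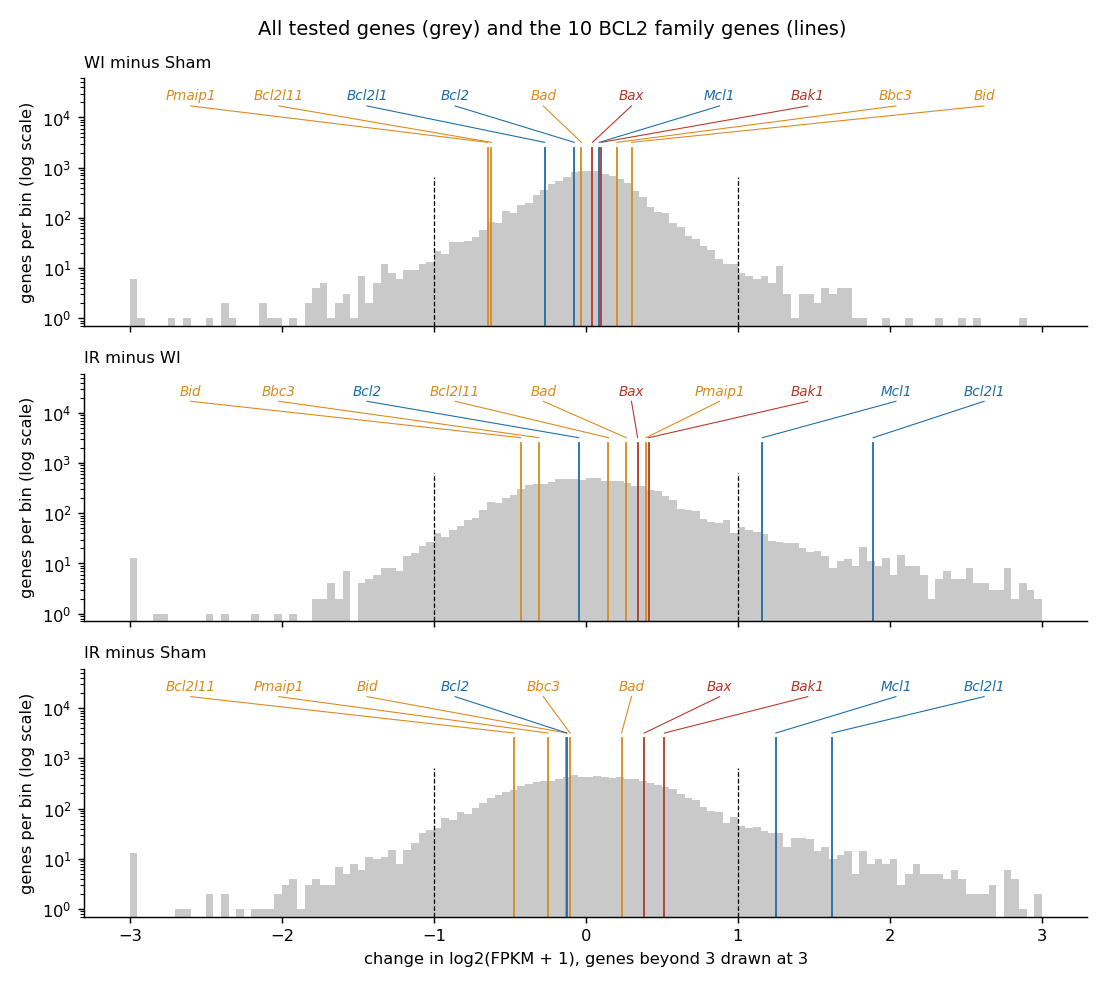
Number of genes (vertical axes, log scale) by change in log2(FPKM + 1) for the 10792 genes, in grey, with the 10 family genes as colored lines and dashed lines at 2-fold. In the middle panel, IR minus WI, Mcl1 at 1.16 and Bcl2l1 at 1.89 lie in the right tail and the other 8 members in the bulk of genes.

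A ratio between 2 genes of the same library does not depend on how the libraries are scaled. The intervals given with these ratios propagate the model error of the bounds as if it were independent between genes. The summed FPKM of the 3 pro-survival genes was 46.6 in sham, 45.6 in WI and 125 in IR, and that of the 7 pro-death genes was 38.7, 39.3 and 45.7. The ratio of both sums was 1.20 in sham (95% interval 0.782 to 1.86), 1.16 in WI (0.741 to 1.82) and 2.73 in IR (1.73 to 4.29). The IR sample stood highest, and its interval met the upper ends of the others. Set against the BH3-only genes alone, a split chosen after the data were seen, the pro-survival sum was 2.60 times as high in sham (1.63 to 4.14), 2.59 times in WI (1.58 to 4.24) and 7.23 times in IR (4.30 to 12.1). These intervals did not overlap between the IR sample and the other samples.

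For pairs of single genes, the ratios of Bcl2l1 and of Mcl1 to Bax and to Bak1 were also highest in the IR sample. Bcl2, whose FPKM was lowest in IR, was not paired with an effector. Bcl2l1 had 1.04 times the FPKM of Bax in sham (0.521 to 2.06), 0.820 times in WI (0.414 to 1.62) and 2.50 times in IR (1.26 to 4.97). The ratio of Mcl1 to Bax was 1.97 (0.987 to 3.94), 2.04 (1.02 to 4.06) and 3.61 (1.78 to 7.33). For both pairs the IR interval overlapped those of the other samples. The ratio of the effectors to each other, Bax to Bak1, was 2.86, 2.71 and 2.51. Mcl1 and Bcl2l1 together made up 54.2% of the summed FPKM of the 10 genes in sham, 53.4% in WI and 73.0% in IR.

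**Figure D4:**
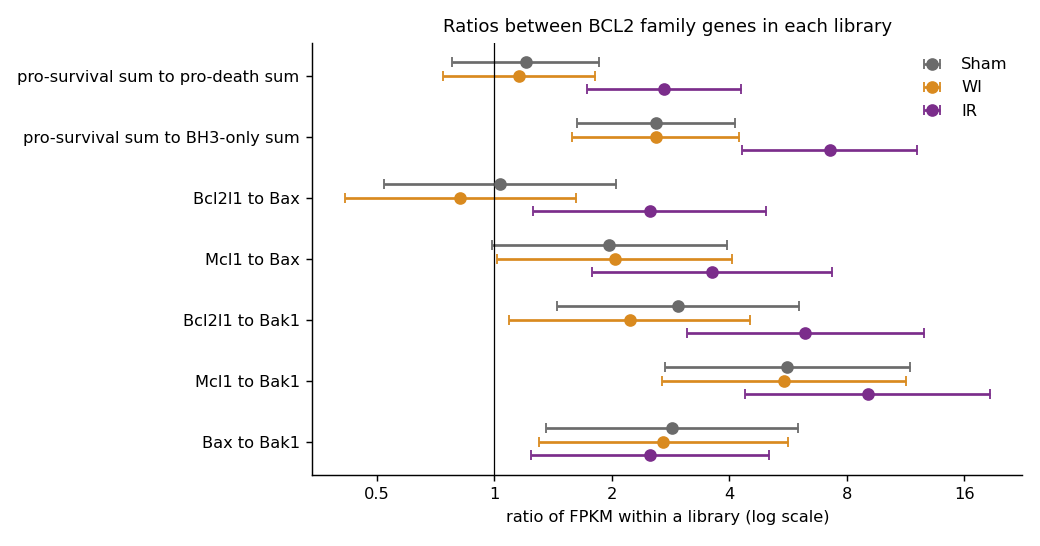
Ratios of FPKM within a library (horizontal axis, log scale) for sums and pairs of family genes, with points for the sham, WI and IR libraries and bars for the 95% intervals from the model error. The ratios of the pro-survival sum to the pro-death and BH3-only sums are highest in IR, at 2.73 and 7.23. The same holds for Bcl2l1 and Mcl1 to each effector, whereas the ratio of Bax to Bak1 lies between 2.51 and 2.86 in all 3.

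The order of the members was nearly the same in the 3 libraries. In the sham sample it ran Mcl1, Bcl2l1, Bax, Bad, Bak1, Bid, Bcl2l11, Bbc3, Pmaip1 and Bcl2. In the WI sample Bax stood above Bcl2l1, Bid above Bak1 and Bbc3 above Bcl2l11, and the IR sample had the order of the sham sample. None of the 9 pairs of neighbors in any library had bounds that were apart, so these exchanges are within the model error. In the IR sample the lower bound of Bcl2l1, 26.3, lay above the upper bound of every pro-death gene except Bax, whose upper bound was 30.3.

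Around the 10 genes, 48 further genes of the pathway in 3 lists were followed, of which 43 reached an FPKM of 1 in at least 1 library. None changed at least 2-fold from sham to WI, 7 did from WI to IR and 5 from sham to IR. The shares over the 10792 genes were 1.85%, 7.21% and 7.5% in the same order. All of the pathway genes past 2-fold were higher in IR, and all belong to the list of upstream regulators. With TPM the balance turned, to 2 higher and 6 lower from WI to IR and 2 higher and 5 lower from sham to IR. The lower genes were spread over all 3 lists. Over all genes the balance also turned, to 3.57% higher and 11% lower from WI to IR. From sham to IR it was 2.96% higher and 14.4% lower.

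The first list holds the other BCL2 family genes, 11 of 16 of them above the filter. As deposited, 0 of these changed at least 2-fold in FPKM + 1 in any comparison. Bmf, a BH3-only gene linked to loss of attachment, had an FPKM of 3.61 in sham, 3.70 in WI and 1.58 in IR, a change of -0.87 from WI to IR. In plain FPKM its IR value was 0.426 times that of WI and 0.437 times that of sham, both past 2-fold. Bcl2l2, a pro-survival gene that encodes BCL-W, had 6.61, 6.51 and 4.19, a change of -0.53 from WI to IR. It thus did not share the rise of Bcl2l1 and Mcl1. With TPM the changes of Bmf and Bcl2l2 were -1.42 and -1.06, past 2-fold. Bok, a relative of the effectors, had 4.55, 3.22 and 4.94, and Bik, another BH3-only gene, had 3.96, 3.43 and 3.04.

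Bcl2a1a, Bcl2a1b and Bcl2a1d encode copies of A1, a pro-survival protein of blood cells, and near-identical sequence lets their reads be divided between them. Bcl2a1c had an FPKM of 0.0032 in sham and 0 in WI and IR. The summed FPKM of all 4 Bcl2a1 genes was 7.38 in sham, 5.73 in WI and 10.8 in IR, 1.88 times as high in IR as in WI. The neutrophil markers given above moved in the same direction between these samples, and their part in this value was not tested.

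The second list holds the machinery downstream of the family, such as cytochrome c (Cycs), its partner Apaf1, the caspases and their inhibitors. All 16 genes were above the filter and 0 changed at least 2-fold in any comparison as deposited, whereas with TPM 3 were lower past 2-fold from WI to IR and 1 from sham to IR. With TPM, 11% and 14.4% of all genes were lower past 2-fold in the same order. From sham to WI their median change was 0.15, beside 0.02 over all genes, and 12 of 16 were higher (9 of 16 with TPM). Of all 10792 genes, 5671 were higher, and 5172 with TPM. With TPM the median was 0.12 for the list and -0.01 over all genes. Xiap, which encodes an inhibitor of caspases, had an FPKM of 12.7, 14.7 and 8.07 in the sham, WI and IR samples, a change of -0.79 from WI to IR and of -1.33 with TPM. Its bounds overlapped in each pair of samples.

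The third list holds 16 genes for factors that act on the family, through transcription or on the proteins. Its median change from WI to IR was 0.60, and 0.13 with TPM. Pim1, a kinase gene induced by cytokines whose product can phosphorylate BAD, had an FPKM of 5.23 in sham (2.44 to 8.03), 4.48 in WI (2.04 to 6.91) and 27.5 in IR (14.8 to 40.3). Its IR bounds lay above the others. The changes from WI to IR were 2.38 for Pim1, 1.81 for Ddit3, 1.53 for Pim3, 1.48 for Jun, 1.19 for Rela, 1.16 for Atf4 and 1.10 for Stat3. Jun (FPKM 71.7, 39.1 and 111 in sham, WI and IR) and Pim3 (95.2, 51.3 and 150) were lowest in WI. Their changes were -0.86 and -0.88 from sham to WI. From sham to IR they were 0.62 and 0.65, short of 2-fold. Stat3 had an FPKM of 19.5, 23.96 and 52.3 in the sham, WI and IR samples and Rela one of 10.7, 10.6 and 25.6. Both encode transcription factors known to act on Bcl2l1 and Mcl1, and Atf4 and Ddit3 encode factors of the stress response. For these 7 genes other than Pim1 the bounds of IR and WI overlapped, and those of Ddit3 reached down to 0 in WI. With TPM only Pim1 and Ddit3 stayed past 2-fold. The locus of Ddit3 is shared with Mars, and the division of reads between both is uncertain.

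Trp53, the gene of p53 itself, had an FPKM of 5.01, 5.50 and 9.34 in the sham, WI and IR samples, a change of 0.67 from WI to IR. Mdm2, a target and inhibitor of p53, had 6.53, 6.18 and 6.52. Of the genes for enzymes that mark or spare MCL1 for degradation, Huwe1 had 8.85, 9.18 and 7.20, Usp9x had 11.02, 11.45 and 7.94, and Fbxw7 had 1.53, 1.41 and 0.927. None of these 5 genes passed 2-fold in a comparison, and with TPM the change of Usp9x from WI to IR, -0.48, became -1.01. Xiap, Huwe1 and Usp9x lie on the X chromosome, and the libraries differ in Xist and Y-linked genes as given above. The part of that difference in their values was not tested.

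**Figure D5:**
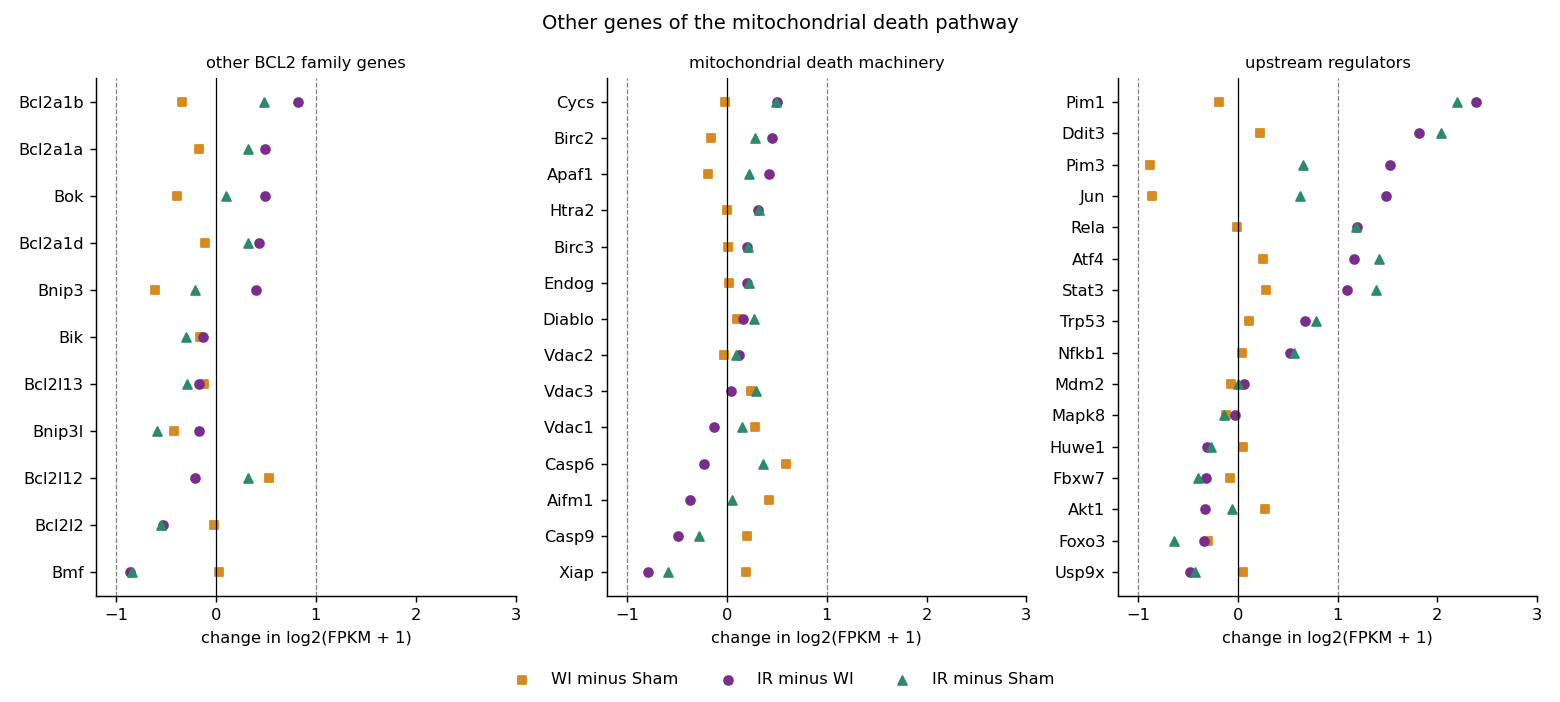
Change in log2(FPKM + 1) (horizontal axes) of 41 of the other pathway genes above the filter, in 3 lists, for WI minus sham (squares), IR minus WI (circles) and IR minus sham (triangles), with dashed lines at 2-fold. The 7 circles past the right dashed line, from Stat3 at 1.10 to Pim1 at 2.38, are all in the list of upstream regulators.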

How the data were processed

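Per the labels and the study's methods, the authors mapped read pairs to mm10 with TopHat2 2.0.9 and computed FPKM per gene with Cufflinks (Cuffdiff) 2.0.2 at default parameters. The deposited tables hold FPKM with 95% bounds and a status, which was OK for all 10 members in all 3 libraries. Start positions, which count from 0 in the tables, were raised by 1. The tables hold no counts. Over genes above the filter, the median model error taken from the bounds was 26.5% of the FPKM in all 3 libraries. Among 955 genes with FPKM under 0.1 in WI and IR, the most frequent IR to WI ratio was near 1.41, for 79 of them. Without counts, whether this ratio is the weight of a single fragment cannot be told.

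Genes that reached an FPKM of 1 in any library were kept, a pseudocount of 1 was added, and 3 pairs of libraries were compared at 2-fold. All 10 members were named, the pathway genes by lists, and the p53 target Cdkn1a beside them. Of the lists, genes past 2-fold and the closest relatives of members were named, and Xiap, Trp53, Mdm2, Huwe1, Usp9x and Fbxw7 were added after their values were seen. The sinusoidal endothelial (133, 96.5 and 108), lymphocyte (6.83, 4.54 and 2.85) and stellate cell (160, 114 and 118) marker lists had these summed FPKM in sham, WI and IR. In the endothelial list Lyve1 went from 2.73 in WI to 33.4 in IR, while Stab1, Stab2, Clec4g, Kdr and Oit3 were lower in IR. The median change of that list from WI to IR was -0.11. Members, lists and promoter motifs were chosen with earlier results of these data known. A few genes of the lists are counted but not reported here. Scripts were tested on simulated data. Python 3.11.15, numpy 2.4.6, pandas 2.3.3 and matplotlib 3.10.9 were used.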

Additional observations from a re-analysis of the deposited data

How the results depend on the processing

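No paired analysis was possible because each group has 1 library, so no replicate could be left out either. Among the 10 members, the count changed at least 2-fold from sham to WI rose from 0 to 1 with a pseudocount of 0.1 or none (Pmaip1), against 3.54% of all genes with 0.1 and 4.04% with none, and to 2 at 1.5-fold (7.41% of all genes). From WI to IR and from sham to IR it fell from 2 to 1 with TPM (Mcl1 was lost) and to 0 at 4-fold (1.8% and 1.54% of all genes), and with no pseudocount it was 3 from WI to IR, Pmaip1 being added, and 2 from sham to IR. The pathway counts were 4, 11 and 12 at 1.5-fold in the order WI against sham, IR against WI and IR against sham, where 7.41%, 19.8% and 23.8% of all genes were called, against 0, 7 and 5 at 2-fold. At 4-fold they were 1 and 2 in the comparisons with IR. With a pseudocount of 0.1 or none they were 0, 8 and 6, Bmf being added in both comparisons with IR. With none, 12.2% of all genes were called from WI to IR. The share over all genes was not taken with none from sham to IR, nor with 0.1 in either comparison with IR. The counts there have no background beside them. With TPM they were 8 (2 higher, 6 lower) from WI to IR and 7 (2 higher, 5 lower) from sham to IR. Over all genes 3.57% were higher and 11% lower from WI to IR, and 2.96% higher and 14.4% lower from sham to IR. The median difference between pro-survival and pro-death genes from WI to IR became 1.22 with a filter at an FPKM of 5 in any library, which leaves out Bcl2, Bbc3, Pmaip1 and Bcl2l11. The ratio of pro-survival to pro-death FPKM, taken without the most abundant gene of each side, was 0.698 in sham, 0.567 in WI and 2.02 in IR, as a ratio of medians it was 2.97, 2.23 and 10.6 in sham, WI and IR, and with BH3-only genes alone, an alternative chosen after seeing the data, 2.60, 2.59 and 7.23. The cause of these moves was not tested. The IR sample had the highest ratio in each of these. Of 120 values of single members under other pseudocounts or scalings, 97 moved by less than their model error and 23 did not. Under TPM 14 did and 16 did not. A turn of direction was sought only for deposited changes of 2-fold or more, those of Bcl2l1 and Mcl1, and none was found. Among smaller changes, the direction of 4 members from WI to IR and of 2 from sham to IR turned with scaling. No condition has a replicate, so differences between mice are not measured.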
